A study of Rattus norvegicus with 16 samples.

Results

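Transcripts of glucose breakdown and the response to low oxygen were followed in cultured rat microglia through Hif1a, Slc2a1, Hk2, Gapdh, Pkm, Ldha and Vegfa, 7 of the 30560 genes listed. They were chosen by Ensembl identifier, with the symbols paired to the identifiers by the rule that chose them and not by any measured value: ENSRNOG00000008292 (Hif1a), ENSRNOG00000007284 (Slc2a1), ENSRNOG00000006116 (Hk2), ENSRNOG00000018630 (Gapdh), ENSRNOG00000011329 (Pkm), ENSRNOG00000013009 (Ldha) and ENSRNOG00000019598 (Vegfa). The rule was, however, written with earlier results of these data known. The deposited tables give identifiers only, and the RefSeq gene table at hand pairs none of its 47357 genes with Ensembl, so neither these symbols nor any microglial marker could be checked. Microglia are the resident macrophages of the brain. The cells were primary, wild-type rat cultures at day 12 in vitro, in 4 groups of 4 libraries. Control cells received neither agent. The LPS group received lipopolysaccharide, a Gram-negative cell wall component sensed by Toll-like receptors, at 100 ng/ml for 20 hours. The ApoA-I group received apolipoprotein A-I, the chief HDL protein, at 100 ug/ml in the medium, and the combined treatment group received both agents at these doses. Whether the 4 replicates came from different cultures or rats is not stated in the labels; the p-values therefore describe the spread between libraries only, and that spread may be technical.

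Glycolysis turns glucose into pyruvate in the cytosol and yields ATP without oxygen, and lactate dehydrogenase then turns pyruvate into lactate. HIF1A, the regulated subunit of hypoxia-inducible factor, is degraded when oxygen is plentiful and otherwise binds short hypoxia response elements, through which it raises glucose transporters, glycolytic enzymes and VEGFA. In macrophages and microglia, activation through Toll-like receptors is known to raise Hif1a transcription and to shift metabolism toward glycolysis. Transcript levels do not measure glucose use, lactate or HIF1A protein, none of which was analysed here.

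The promoter windows of 4 of the genes are shown because they differ in the hypoxia response element core, written ACGTG or GCGTG and searched on both strands. They come from RefSeq (build GRCr8) and run from 250 bases before to 50 after the annotated start, in the direction of transcription, with each match in capitals (CACGT and CACGC are the same cores on the opposite strand). Overlapping matches were counted each, so the palindrome CACGTG counts on both strands.
Hif1a (chr6:98359648-98359947, plus strand): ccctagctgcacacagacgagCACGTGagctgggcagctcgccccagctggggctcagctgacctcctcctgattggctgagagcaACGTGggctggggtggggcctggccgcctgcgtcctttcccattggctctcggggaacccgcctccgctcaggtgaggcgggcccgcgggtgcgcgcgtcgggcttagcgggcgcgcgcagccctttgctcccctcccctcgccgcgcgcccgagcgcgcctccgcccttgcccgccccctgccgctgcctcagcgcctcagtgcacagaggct
Slc2a1 (chr5:138002272-138002571, plus strand): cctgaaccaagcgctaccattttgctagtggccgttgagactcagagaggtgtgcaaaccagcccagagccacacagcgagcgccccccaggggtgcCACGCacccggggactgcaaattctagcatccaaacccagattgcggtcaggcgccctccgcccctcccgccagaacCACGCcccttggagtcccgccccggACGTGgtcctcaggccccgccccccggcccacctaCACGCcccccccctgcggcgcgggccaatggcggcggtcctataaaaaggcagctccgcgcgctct
Ldha (chr1:106507842-106508141, plus strand): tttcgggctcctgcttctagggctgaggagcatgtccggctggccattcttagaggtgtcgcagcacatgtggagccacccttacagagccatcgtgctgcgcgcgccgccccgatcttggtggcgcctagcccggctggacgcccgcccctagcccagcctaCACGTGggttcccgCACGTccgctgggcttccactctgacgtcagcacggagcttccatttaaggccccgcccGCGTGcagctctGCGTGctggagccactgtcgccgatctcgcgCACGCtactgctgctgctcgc
Hk2 (chr4:116841226-116841525, minus strand): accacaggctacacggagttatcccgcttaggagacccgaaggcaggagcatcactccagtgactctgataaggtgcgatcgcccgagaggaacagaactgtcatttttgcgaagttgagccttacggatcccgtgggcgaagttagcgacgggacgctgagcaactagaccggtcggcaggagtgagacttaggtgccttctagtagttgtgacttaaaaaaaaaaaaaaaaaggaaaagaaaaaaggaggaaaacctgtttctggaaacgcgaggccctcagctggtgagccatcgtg
Ldha held 6 matches, Slc2a1 held 4, and Hif1a and Gapdh held 3 each. No match lay in the windows of Hk2, of Pkm or in either of the 2 windows listed for Vegfa. Among these genes without a match, Hk2 fell with LPS, whereas Pkm and Vegfa rose in the main test below. Of 33469 rat windows of the same length, 41.6% held at least 1 match, 8.15% at least 3 and 0.630% at least 6. A match is a description of the letters and not a site of binding, and a window without one says nothing about elements elsewhere.

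Libraries held 12304916 to 17262383 estimated counts, and 11902 genes had enough counts to be tested. All 7 genes were among them. Vegfa passed the filter only through the libraries with LPS (2 of 4 libraries reached the minimum in Control and in ApoA-I, and 4 of 4 in each group with LPS), so a difference was likely once it had passed. Gapdh and Pkm had counts that were not whole numbers in 16 of 16 libraries and Ldha in 1, as arises when reads are divided between genes, so their counts are uncertain to the extent that they share reads with near-identical copies; Gapdh has many processed pseudogenes. Levels are given as TPM (transcripts scaled to length and library) where genes are compared with each other, and as CPM (counts scaled to the library size corrected by the trimmed mean of M-values, TMM) where groups are compared. In bulk RNA, fewer cells and less RNA per cell cannot be told apart.

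**Figure D1:**
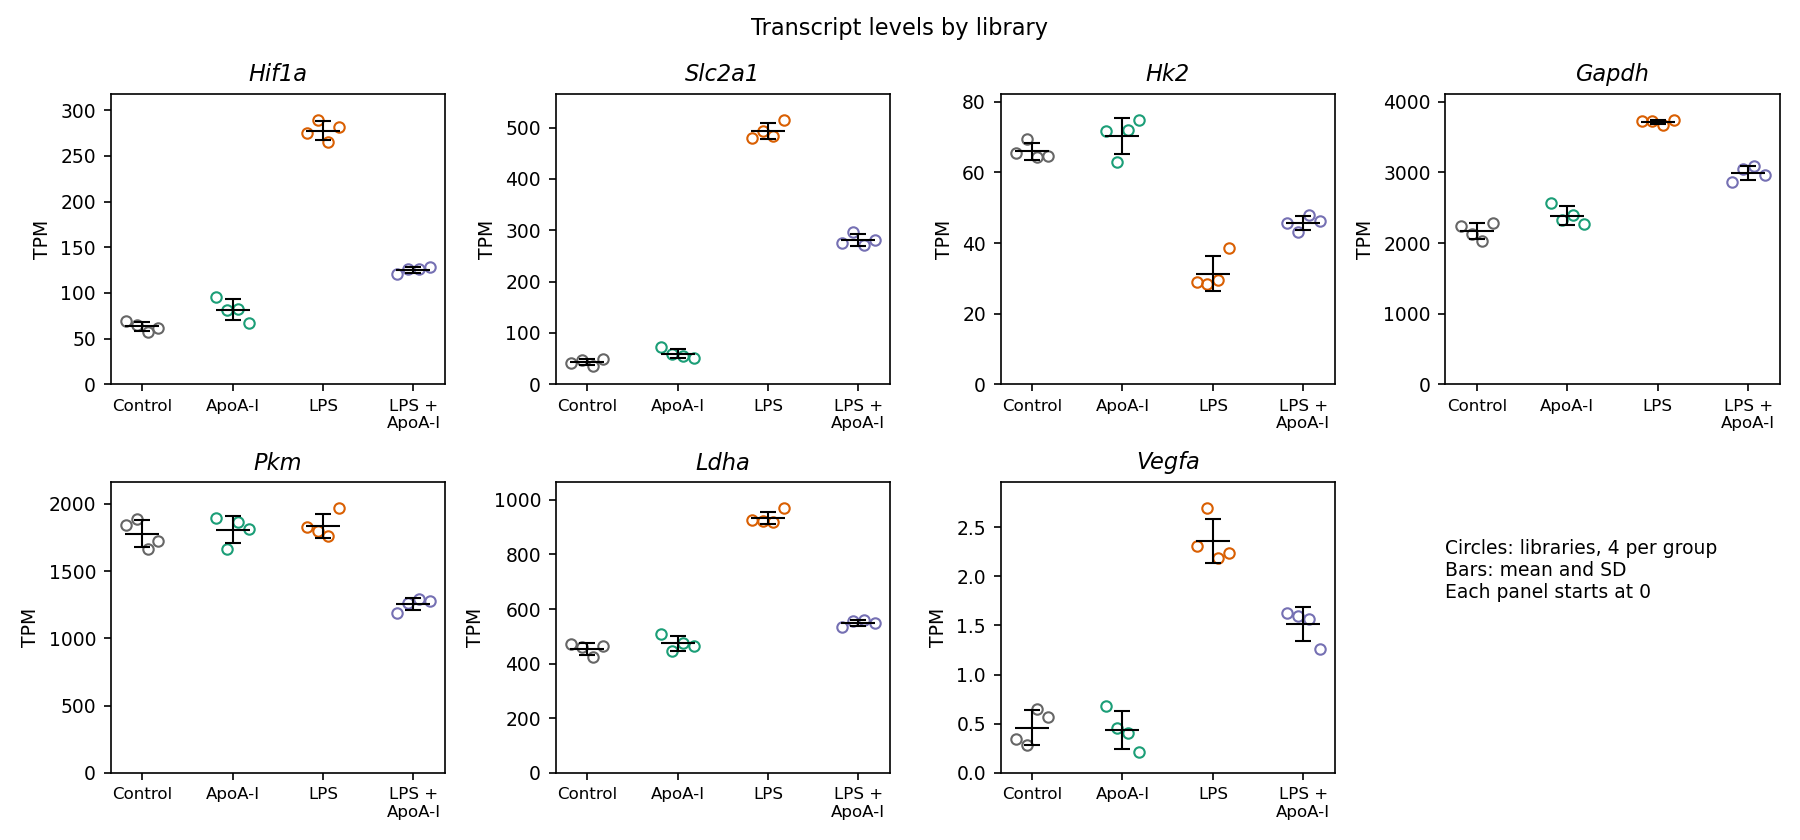
TPM of each gene (vertical axes, from 0) in the 4 libraries of each group (circles), with mean and SD (bars). LPS libraries lie above the other groups for Hif1a, Slc2a1, Gapdh, Ldha and Vegfa and below them for Hk2, while for Pkm the libraries with both agents lie apart, at 1187 to 1291 TPM.

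In Control cells the genes spanned a wide range of levels. Gapdh stood at 2173 ± 112 TPM, the 75th highest of all listed genes, followed by Pkm at 1779 ± 101 TPM and Ldha at 455 ± 21.4 TPM (SD, n = 4 each). Hk2 at 66.0 ± 2.42 TPM and Hif1a at 63.3 ± 4.90 TPM overlapped between libraries, and Slc2a1 was lower at 43.6 ± 6.31 TPM (SD, n = 4 each). Vegfa was close to the detection limit at 0.460 ± 0.178 TPM (SD, n = 4), from 8 to 18 estimated counts per library. With LPS the order became Gapdh (3717 ± 32.8 TPM), Pkm (1838 ± 90.3 TPM), Ldha (934 ± 23.7 TPM), Slc2a1 (493 ± 15.6 TPM), Hif1a (278 ± 10.4 TPM), Hk2 (31.3 ± 4.89 TPM) and Vegfa (2.36 ± 0.227 TPM; SD, n = 4 each). No 2 neighbours in this order overlapped. Slc2a1 had moved from below Hk2 to above Hif1a. The combined treatment kept this order, with Slc2a1 at 281 ± 11.0, Hif1a at 125 ± 3.48 and Hk2 at 45.8 ± 2.01 TPM, whereas in ApoA-I libraries Hif1a (81.3 ± 11.5 TPM), Hk2 (70.4 ± 5.18 TPM) and Slc2a1 (59.1 ± 8.91 TPM) overlapped (SD, n = 4 each). The 7 genes together held 0.458% ± 0.0201 of the TPM of Control libraries, 0.488% ± 0.0252 for ApoA-I, 0.729% ± 0.0163 for LPS and 0.525% ± 0.0157 for the combined treatment (SD, n = 4 each). Gapdh and Pkm make up most of this sum.

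LPS against Control asked how activation changed these transcripts. Transcripts of the transporter Slc2a1 rose most, 15.2-fold, followed by Vegfa (7.11-fold), Hif1a (5.90-fold), Ldha (2.75-fold) and Gapdh (2.30-fold), on the TMM scale; in TPM the ratios of the means were 11.3, 5.13, 4.39, 2.05 and 1.71. Pkm rose 1.39-fold on the TMM scale and had nearly the same TPM in both groups. Hk2 alone fell, to 0.636 of its Control level. Thus 6 of the 7 rose and 1 fell in the edgeR test (adjusted p under 0.05), where 74.7% of all tested genes were called, 36.3% higher and 38.4% lower. All 7 had CPM without overlap between the groups, as did 67.5% of tested genes. With Vegfa left aside, since it passed the filter only through the libraries with LPS, 5 rose and 1 fell, and none of these 6 overlapped. The median log2 fold change was 1.46 over the 7 genes, 1.33 without Vegfa and -0.04 over all tested genes. These medians are a description, since the 7 genes were chosen with earlier results of these data known.

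Hif1a, the regulator, had 145, 132, 128 and 134 CPM in Control libraries 1 to 4. With LPS it had 804, 841, 784 and 752 CPM, so the groups lay far apart (log2 fold change 2.56, SE 0.068, edgeR adjusted p = 4.57e-19). Of all tested genes, 96.6% had a lower log2 fold change.

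Slc2a1 encodes GLUT1, the glucose transporter of the plasma membrane that most cells use for basal uptake. Its CPM was 57.4, 64.8, 53.9 and 72.2 in Control libraries and 939, 959, 957 and 921 in LPS libraries. The LPS libraries differed among themselves by an SD of 1.89% of their mean, against 13.1% in Control, and the log2 fold change was 3.93 (SE 0.086, edgeR adjusted p = 1.58e-20). A lower change was seen in 98.2% of tested genes.

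Hk2 encodes hexokinase 2, which phosphorylates glucose at the entry to glycolysis. It went the other way, from 135, 138, 141 and 137 CPM in Control to 82.8, 80.8, 85.5 and 101 CPM in LPS libraries. The groups did not overlap (log2 fold change -0.65, SE 0.062, edgeR adjusted p = 2.57e-09), and LPS 4 was the highest of its group. In LPS 4, 8 abundant genes that varied together held 2.08% of counts, against 10.2% or more in each of the other LPS libraries; without LPS 4 the log2 fold change was -0.73, and with the log2 share of these genes as a covariate it was -0.66.

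Gapdh and Pkm encode enzymes of the lower steps, which oxidise glyceraldehyde 3-phosphate and make pyruvate. Gapdh had 1520, 1406, 1467 and 1605 CPM in Control and 3537, 3490, 3522 and 3243 CPM in LPS libraries (log2 fold change 1.20, SE 0.055, edgeR adjusted p = 6.24e-15). Pkm had 2808, 2745, 2717 and 2716 CPM in Control and 3889, 3799, 3771 and 3780 CPM in LPS libraries (log2 fold change 0.47, SE 0.047, edgeR adjusted p = 6.12e-09). Both sets of CPM were without overlap, but in TPM the Pkm groups overlapped, at 1778.9 ± 101 in Control and 1837.8 ± 90.3 in LPS (SD, n = 4 each).

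Ldha encodes the A subunit of lactate dehydrogenase, which favours the making of lactate. It had 385, 363, 369 and 394 CPM in Control and 1054, 1035, 1061 and 1003 CPM in LPS libraries, without overlap (log2 fold change 1.46, SE 0.043, edgeR adjusted p = 2.50e-18). Vegfa, the vascular endothelial growth factor A that acts on neighbouring endothelial cells, rose from 0.506, 0.531, 0.992 and 1.13 CPM to 6.22, 5.31, 5.83 and 5.49 CPM (log2 fold change 2.83, SE 0.31, edgeR adjusted p = 2.74e-08). These values rest on 8 to 18 and on 56 to 79 estimated counts per library, so Vegfa had the widest error of the 7. Vegfa passed the filter only through the libraries with LPS, so a difference was likely in advance and its p-value adds little.

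**Figure D2:**
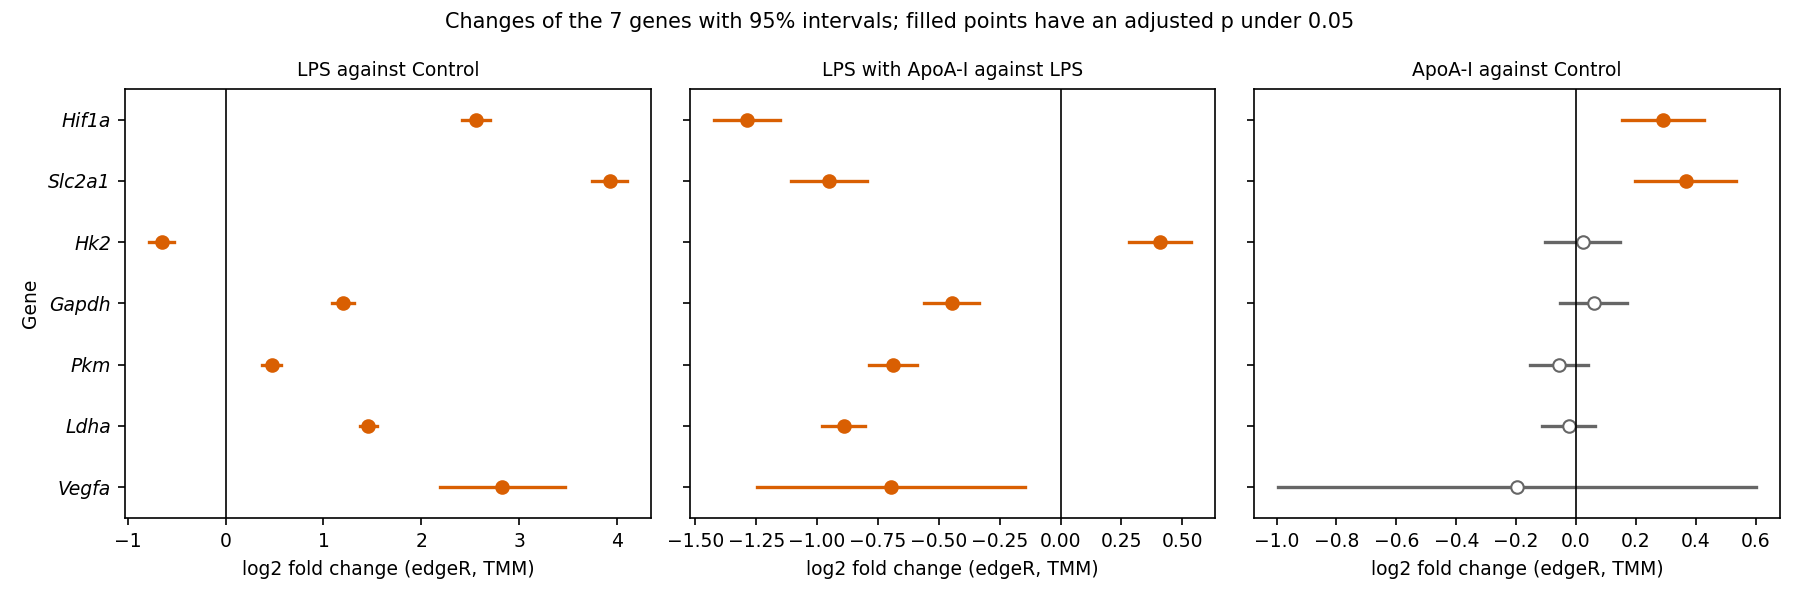
Log2 fold change of each gene (points) with its 95% interval (lines) in 3 comparisons, from edgeR with TMM scaling; filled points had an adjusted p under 0.05. LPS raised 6 genes and lowered Hk2, where 74.7% of tested genes were called. With ApoA-I added to LPS each changed the other way, where 51.4% were called. Both comparisons use the LPS libraries, so opposite directions are partly built in. Pkm was not called as raised on TPM. Vegfa passed the filter only through libraries with LPS, and its fall lost the call in 7 of 25 alternatives. Without LPS the changes were small, with Hif1a (0.29) and Slc2a1 (0.37) called, where 4.27% of tested genes were. The horizontal scales differ between panels.

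The effect of ApoA-I on the same transcripts in LPS-treated cells was read from the combined treatment against LPS alone. The 6 genes that LPS had raised were lower with ApoA-I, and Hk2 was higher. Hif1a was lowered 2.44-fold, Slc2a1 1.93-fold, Ldha 1.85-fold, Vegfa 1.62-fold, Pkm 1.61-fold and Gapdh 1.36-fold, and Hk2 was raised 1.33-fold. All 7 passed the edgeR test (1 higher, 6 lower) in a comparison where 51.4% of tested genes were called, 26.4% higher and 24.9% lower. The median log2 fold change was -0.70 over the 7 genes and 0.03 over all tested genes. The LPS libraries enter this comparison and LPS against Control with opposite sign, so opposite directions are partly built in.

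Hif1a had 315, 333, 320 and 333 CPM with both agents, all below the lowest LPS library at 752 CPM (log2 fold change -1.29, SE 0.065, edgeR adjusted p = 3.16e-13). Slc2a1 had 481, 523, 463 and 487 CPM, again without overlap with LPS (log2 fold change -0.95, SE 0.075, edgeR adjusted p = 5.96e-10). Ldha had 549, 577, 556 and 559 CPM (log2 fold change -0.89, SE 0.042, edgeR adjusted p = 1.21e-13). For these 3 genes the libraries with both agents formed narrow groups, with an SD of 2.75%, 5.19% and 2.13% of the mean.

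Gapdh had 2430, 2618, 2563 and 2503 CPM with both agents (log2 fold change -0.45, SE 0.054, edgeR adjusted p = 4.03e-07). Pkm had 2261, 2408, 2380 and 2408 CPM (log2 fold change -0.69, SE 0.047, edgeR adjusted p = 5.07e-11). Hk2 had 117, 111, 119 and 117 CPM, between the LPS and the Control libraries (log2 fold change 0.41, SE 0.062, edgeR adjusted p = 9.32e-06). None of these overlapped with LPS in CPM, where 47.9% of tested genes did not overlap.

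Vegfa had 3.64, 3.88, 3.59 and 2.97 CPM with both agents, from 43 to 60 estimated counts per library (log2 fold change -0.70, SE 0.26, edgeR adjusted p = 0.0320). The groups did not overlap, but the call did not hold in 7 of 25 alternatives: with library totals (adjusted p = 0.0879), with limma on log2(TPM + 0.1) (0.0949), and in edgeR without LPS 1 (0.0754), without LPS 3 (0.0643), or without replicate 1 (0.0558), 3 (0.0593) or 4 (0.0892) of the libraries with both agents. The log2 fold change was -0.65, -0.69, -0.71, -0.71 and -0.62 without these 5 libraries.

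Cells given both agents were also compared with each of the groups without LPS. Against ApoA-I alone, a measure of the LPS response that shares no library with LPS against Control, 5 genes rose and 2 fell, where 69.4% of tested genes were called, 34.5% higher and 34.8% lower. With Vegfa left aside, since it passed the filter only through the libraries with LPS, 4 rose and 2 fell. The groups did not overlap in CPM for these 6 genes or for Vegfa, nor did they for 63.1% of tested genes. Slc2a1 rose 6.11-fold, Vegfa 5.03-fold, Hif1a 1.97-fold, Gapdh 1.62-fold and Ldha 1.51-fold. Hk2 fell to 0.832 and Pkm to 0.895 of the ApoA-I level (log2 fold changes -0.27, SE 0.061, and -0.16, SE 0.047; edgeR adjusted p = 0.000523 and 0.00453). Against Control 5 genes were higher and 2 lower, where 69.6% of tested genes were called, 34.4% higher and 35.2% lower. Without Vegfa 4 were higher and 2 lower, and none of these 6 overlapped in CPM, like 64.1% of tested genes. The changes ran from Slc2a1 at 7.87-fold to Pkm at 0.861 of the Control level.

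The LPS response with ApoA-I present was also set against that without it, as a ratio of the log2 fold changes. It was 0.66 for Slc2a1, 0.58 for Gapdh, 0.41 for Hk2 and Ldha and 0.38 for Hif1a. For Pkm it was negative, at -0.34, since the direction differed. Over 4 scalings the ratio was 0.64 to 0.66 for Slc2a1. The ratio depended on the scaling for Hif1a (0.30 to 0.38), Ldha (0.21 to 0.41), Hk2 (0.41 to 0.57) and Gapdh (0.42 to 0.58). It did so most for Pkm (-11.1 to -0.34), whose LPS response was near 0 on log2(TPM + 1). Vegfa, which rests on 4 to 18 estimated counts per library without LPS, had a ratio of 0.82, and of 0.67 to 0.83 over the scalings. The differences between these ratios were not tested.

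**Figure D3:**
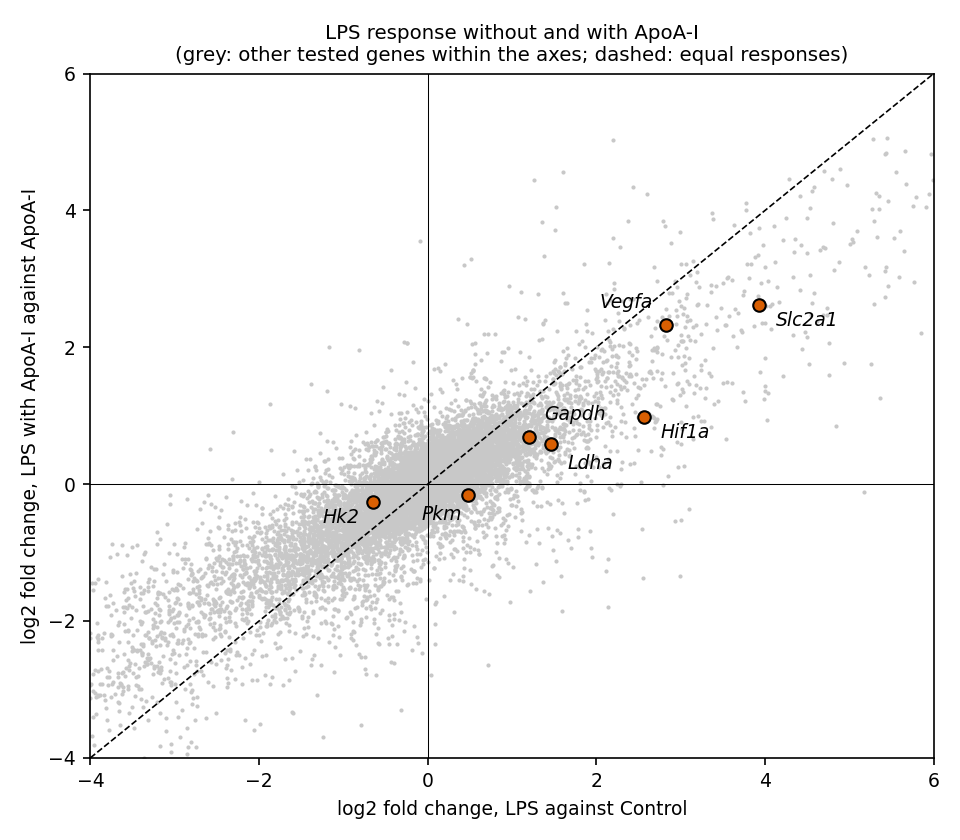
Log2 fold change of LPS against Control (horizontal) and of the combined treatment against ApoA-I (vertical), which share no library; grey points are other tested genes within the axes and the dashed line marks equal responses. Slc2a1 (3.93 and 2.61) and Hif1a (2.56 and 0.98) lie below the line, as does Vegfa (2.83 and 2.33, with the widest error), and Pkm (0.47 and -0.16) lies on the other side of 0.

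Pkm differed from the other 6 genes in that cells with both agents had less of it than any other group. Its CPM with both agents (2261 to 2408) lay below ApoA-I (2581 to 2717), Control (2716 to 2808) and LPS (3771 to 3889) libraries without overlap, and in TPM they also lay below each of these groups, at 1254 ± 46.2 against 1809 ± 102 in ApoA-I (SD, n = 4 each). It was the 1 member of the 7 called lower against each of the 3 other groups, as were 6.63% of all tested genes. The log2 fold change against Control was -0.22 (SE 0.047, edgeR adjusted p = 0.000312) and ranged from -0.50 to -0.20 over 25 alternatives, with an adjusted p of at most 0.00162.

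Without LPS, the changes made by ApoA-I against Control were small: Slc2a1 rose 1.29-fold and Hif1a 1.22-fold, and the other 5 genes did not pass the test. That is 2 of 7, both higher, where 4.27% of tested genes were called, 2.5% higher and 1.77% lower. In CPM each of the 7 genes overlapped between the groups, while 8.26% of tested genes did not. Slc2a1 had 91.6, 83.7, 73.8 and 70.7 CPM in ApoA-I libraries, and the lowest of them lay just below the highest Control library at 72.2 CPM, while in TPM the groups did not overlap (log2 fold change 0.37, SE 0.081, edgeR adjusted p = 0.0124). Hif1a had 181, 175, 166 and 137 CPM, and ApoA-I 4 lay within the Control range of 128 to 145 CPM (log2 fold change 0.29, SE 0.066, edgeR adjusted p = 0.0140).

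Both calls depended on single libraries. Without Control 3 the edgeR adjusted p was 0.0512 for Slc2a1 (log2 fold change 0.30) and 0.0577 for Hif1a (0.27). Without ApoA-I 1 it was 0.0613 for Slc2a1 (0.29) and 0.0693 for Hif1a (0.24). In a fit of these 8 libraries alone it was 0.0922 for each gene. Between these groups 8 abundant genes that varied together held 4.05% to 11.9% of counts in Control and 1.61% to 9.43% in ApoA-I libraries; with their log2 share as a covariate both genes were called, Slc2a1 at 0.37 (adjusted p = 0.0424) and Hif1a at 0.34 (adjusted p = 0.0165).

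The 5 genes without a call had ApoA-I libraries at 133 to 151 CPM for Hk2, 1491 to 1624 for Gapdh, 2581 to 2717 for Pkm, 364 to 376 for Ldha and 0.260 to 1.18 for Vegfa, each range overlapping with Control. For these genes the 95% intervals of the log2 fold change limit the size of a change. They were -0.10 to 0.15 for Hk2, -0.05 to 0.17 for Gapdh, -0.15 to 0.04 for Pkm and -0.11 to 0.06 for Ldha. For Vegfa the interval was -0.99 to 0.60, from 4 to 18 estimated counts per library in the 8 libraries, and no change was detectable at this depth.

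The interaction term compares the ApoA-I effect under LPS with that in resting cells. In edgeR 6 of the 7 genes passed, 5 negative and 1 positive, where 41% of tested genes were called, 20.2% negative and 20.8% positive. Hif1a had the largest value of the 7, at -1.58 log2 units (SE 0.092, edgeR adjusted p = 1.55e-11). Its log2 fold change with ApoA-I was -1.29 under LPS. Without LPS it was 0.29, a call that was lost in 4 of 25 alternatives. Slc2a1 followed at -1.32 (SE 0.11, edgeR adjusted p = 3.72e-09), Ldha at -0.87 (SE 0.060), Pkm at -0.63 (SE 0.066) and Gapdh at -0.51 (SE 0.076). Hk2 had a positive value of 0.39 (SE 0.086, edgeR adjusted p = 0.00105). Vegfa did not pass (-0.50, 95% interval -1.48 to 0.48, edgeR adjusted p = 0.421).

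The scaling of libraries moved these changes together. TMM, library totals and log2(TPM + 1), in this order, put the median change of all genes under LPS at -0.04, -0.42 and -0.38, and 48.6%, 25.5% and 23.7% of called genes were higher. The combined treatment against LPS gave medians of 0.03, 0.18 and 0.14, with 51.4%, 71.8% and 70.9% of calls higher. Against ApoA-I 49.8%, 26.7% and 22.9% of its calls were higher (medians -0.01, -0.30 and -0.31), and against Control 49.4%, 31.2% and 28.5% (medians -0.01, -0.24 and -0.24). The split was 58.5%, 83.1% and 82.1% in resting cells given ApoA-I, and 50.7%, 65.1% and 61.4% for the interaction.

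Against this shift Hif1a, Slc2a1, Hk2, Gapdh, Ldha and Vegfa each had the same direction in all 25 alternatives, both for LPS alone and for ApoA-I added to LPS. The rise of Pkm with LPS lost its call on these scales: it was 0.090 with library totals (edgeR adjusted p = 0.243) and 0.047 on log2(TPM + 1) (limma adjusted p = 0.450). Relative to the median of all genes on each scale, Pkm lay above it throughout. Hk2 fell by 0.65 with TMM and by more with library totals and on TPM, down to -1.08 over the alternatives.

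**Figure D4:**
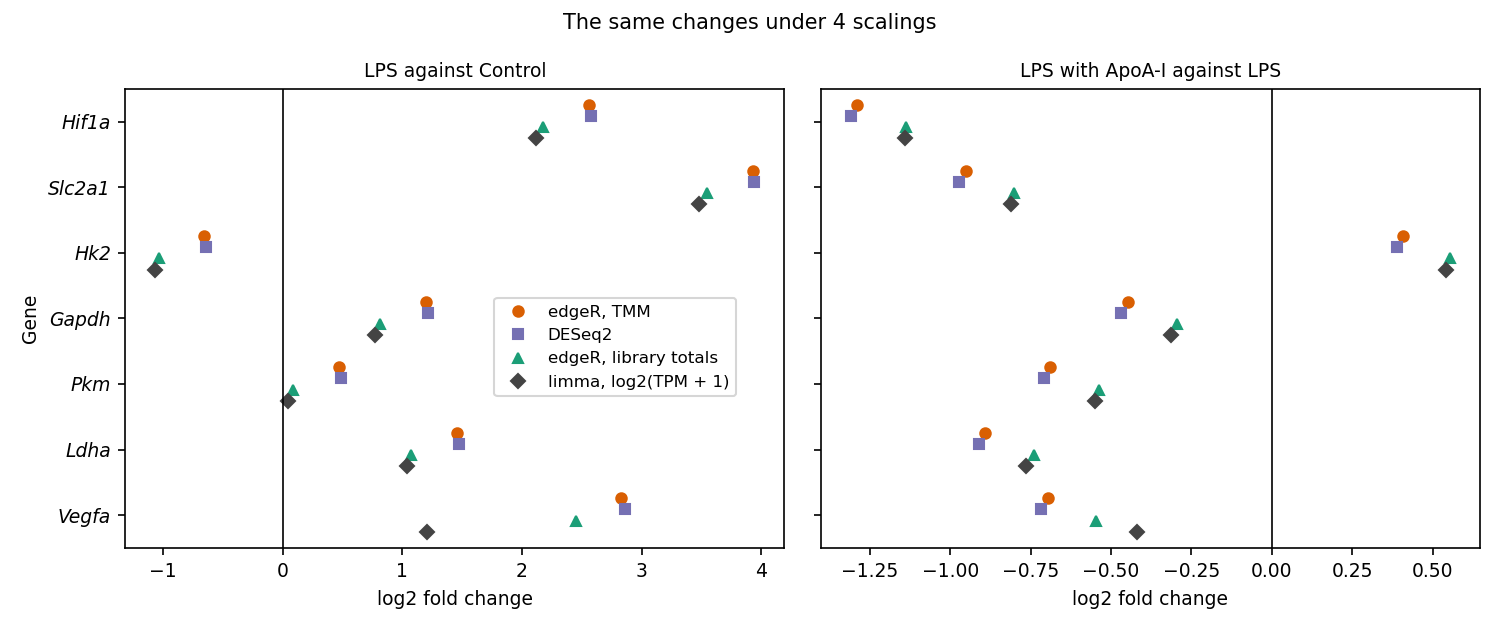
Log2 fold change of each gene for LPS against Control (left) and the combined treatment against LPS (right) under 4 combinations of tool and scaling. Points shift together between scalings; Pkm in LPS against Control moves from 0.47 to 0.047, and Vegfa on log2(TPM + 1) lies nearer 0, with Control levels below the pseudocount.

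The tested genes with the pattern most like the 2 genes upstream of the enzymes were found by Pearson's r of log2 CPM over the 16 libraries, as a description, since libraries with and without LPS form separate clusters. For Hif1a it was ENSRNOG00000005935 (r = 0.995), with 149 ± 10.5 CPM in Control, 171 ± 14.5 with ApoA-I, 601 ± 12.4 with LPS and 313 ± 15.1 with both agents (SD, n = 4 each). For Slc2a1 it was ENSRNOG00000022565 (r = 0.999), with 303 ± 15.4, 329 ± 13.4, 1014 ± 12.8 and 768 ± 8.73 CPM in the same order (SD, n = 4 each).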

How the data were processed

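Libraries of the 16 samples (4 groups of 4, by sample title) were made by a sequencing provider, per the labels' protocols. Estimated counts (3.24% of values not whole, tolerance 0.005) and TPM, each per gene, are what the authors deposited. The tools cutadapt 1.8.1, STAR 2.7.10b and RSEM 1.3.1, and the mouse build mm10 stand in the submitters' processing notes with no role given, while all identifiers are rat. The rat annotation and the use of strand are not given in the sources used here, so reads of overlapping antisense genes cannot be told apart.

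Counts were rounded. Genes were kept by filterByExpr (minimum count 10) and fitted over all 16 libraries with edgeR 4.0.16 in R 4.3.3 (TMM, quasi-likelihood F test, 12 residual degrees of freedom, Benjamini-Hochberg over 11902 genes, threshold 0.05). The SE of a log2 fold change was its size over the square root of F. Alternatives used DESeq2 1.42.0 and limma 3.58.1 on log2(TPM + 1) or log2(TPM + 0.1). Scripts were tested on simulated data. No replicate pair agreed within counting noise (chi-square over its degrees of freedom 3.10 or more). The 7 genes, lists and tests were chosen with earlier results of these data known. The genes named are the 7 of the rule and the nearest gene of Hif1a and of Slc2a1. The planned lists of further glycolysis, hypoxia, VEGF and pentose phosphate genes and of cell type markers are not reported, since no identifier could be looked up.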

Additional observations from a re-analysis of the deposited data

Results flagged for a closer look

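In 6 of the 7 genes the ApoA-I effect under LPS was unlike that in resting cells by the interaction test, where 41% of tested genes were called. The values were -1.58 log2 units for Hif1a, -1.32 for Slc2a1, -0.87 for Ldha, -0.63 for Pkm, -0.51 for Gapdh and 0.39 for Hk2. Over 24 alternatives the values ranged from -1.66 to -1.49 for Hif1a, -1.40 to -1.22 for Slc2a1, -0.89 to -0.77 for Ldha, -0.66 to -0.54 for Pkm, -0.57 to -0.41 for Gapdh and 0.35 to 0.50 for Hk2, and each stayed called.

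Gapdh in LPS 4 had 3243 CPM and lay apart from the other LPS libraries (3490 to 3537 CPM) by Dixon's test at the 95% level. In TPM the 4 libraries were close, at 3669 to 3744. LPS 4 also had 2.08% of its counts in the 8 abundant genes, against 10.2% or more in each of the other LPS libraries. With the log2 share of these genes as a covariate, the Gapdh log2 fold change was 1.20 for LPS against Control. For the combined treatment against LPS it was -0.46 in that fit. The part of this share in the single Gapdh value of LPS 4 was not tested. Without LPS 4 the log2 fold change of Gapdh was 1.23 for LPS against Control and -0.48 for the combined treatment against LPS, against 1.20 and -0.45 with it. Chance marks about 1 in 20 groups in this way, and 28 groups were looked at.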

How the results depend on the processing

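Of the 7 genes' changes, all kept direction and call in LPS against Control under 25 alternatives except Pkm, which lost the call with library totals and in the 3 fits on TPM (0.047 in each), and all but Vegfa did in the combined treatment against LPS. In ApoA-I against Control, values near 0 changed sign without a call: Pkm was 0.0031 with library totals and 0.024 in the 3 fits on TPM, Ldha 0.034 and, in these 3 fits, 0.058, 0.059 and 0.058, and Hk2 -0.063 with the share of the 8 abundant genes as a covariate. With 1 library left out Hk2 ranged from -0.015 (without ApoA-I 4) to 0.047 and Vegfa from -0.59 to 0.081 (0.011 without Control 4, 0.081 without ApoA-I 3). The number of genes called in that comparison, 508, was 805 with DESeq2, 94 with only the groups compared, 246 and 239 with limma on log2(TPM + 1) and log2(TPM + 0.1), 100 without a filter on TPM, 224 with the covariate, and 186 to 775 when 1 library was left out. It was 284, 325, 202 and 775 when Control 1, 2, 3 or 4 was dropped and 186 when ApoA-I 1 was. Of the 2 members called, 0 were called with only the groups compared (edgeR; 2 at an unadjusted p under 0.05), with limma without a filter (3 unadjusted), and without Control 3 or ApoA-I 1 (edgeR; 2 unadjusted each), so that leaving out 1 library gave 0 to 2. No pairing of libraries by replicate number was detected. Same-numbered libraries had a median correlation of deviations of 0.00088 (3 of 24 pairs above 0.1), and a library matched its own number best in 13 of 48 comparisons. With 4 libraries per group this cannot exclude shared cultures or rats. With the replicate number as a block, 8850 genes were called for LPS against Control, 6075, 8231 and 8241 for the combined treatment against LPS, ApoA-I and Control, 469 for ApoA-I against Control and 4808 for the interaction, and no member's call changed. Depth limits Vegfa, with 4 to 79 estimated counts per library.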

Other observations

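Gapdh is widely used as a reference gene for relative quantification, and here it rose with LPS. Levels of the other genes were therefore also expressed per 1000 Gapdh TPM in each library, a ratio chosen after the values had been seen and given without a test. Slc2a1 went from 20.1 ± 2.43 in Control to 133 ± 3.64 in LPS, a ratio of 6.62, and to 93.9 ± 4.12 with both agents (SD, n = 4 each). Hif1a went from 29.1 ± 1.74 to 74.7 ± 2.38 and 41.9 ± 1.08 (SD, n = 4 each), a ratio of 2.56 for LPS over Control. Ldha moved from 209 ± 4.80 to 251 ± 5.14, a ratio of 1.20, and to 184 ± 2.61 with both agents, below the Control libraries (SD, n = 4 each). In TPM itself Ldha was higher with both agents (550 ± 10.7) than in Control (455 ± 21.4; SD, n = 4 each). Pkm, with similar TPM in Control and LPS, went from 820 ± 52.9 to 494 ± 21.0 and 419 ± 8.08 per 1000 Gapdh TPM (SD, n = 4 each). Hk2 went from 30.4 ± 2.07 to 8.43 ± 1.28 and 15.3 ± 0.783 (SD, n = 4 each), a ratio of 0.277 for LPS over Control against 0.475 in TPM.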
